A study of Mus musculus with 32 samples.

Results

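The comparison set cells of an Oct4-deficient aortic smooth muscle line against cells of a wild-type line, both given the oxidized phospholipid POVPC and both kept in hypoxia. Its members were the 6 sequencing libraries whose titles name that pair of groups, out of 24 culture libraries and 32 libraries in the whole series. The KO group held 3 libraries of cells of genotype Oct4 -/-, treated with POVPC at 1% oxygen. The WT group held 3 libraries of wild type cells with the same treatment at the same oxygen level. Strain C57BL/6 is given for both, and both are primary cultures from the aorta. A single line was made for each genotype, so a difference between genotypes and a difference between the 2 lines cannot be told apart here. Each p-value rests on the spread between libraries of the same line and condition, estimated over all 24 culture libraries. Nothing in the labels says that the triplicates were separate cultures, so that spread may be technical. The labels do not give the allele, the Cre or promoter behind the deletion, the vehicle's nature or the length of the treatment. The other culture groups of the same lines (POVPC in normoxia, vehicle in hypoxia and vehicle in normoxia) are used where the effect of oxygen or of POVPC on the genotype difference is described.

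Vascular smooth muscle cells in a healthy artery carry a contractile program driven by serum response factor and myocardin. In atherosclerosis they lose it, migrate, proliferate, make matrix and take on inflammatory or phagocytic features. POVPC is an oxidation product of phosphatidylcholine found in oxidized low-density lipoprotein and in plaques, and it is known to repress contractile genes in cultured smooth muscle cells. Low oxygen stabilizes hypoxia-inducible factors, which raise glycolytic and angiogenic genes. OCT4, the product of Pou5f1, is a POU-domain factor best known for maintaining pluripotent stem cells, and the study asked what it does in smooth muscle cells.

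The libraries held 24452487, 22059164 and 22356954 assigned counts for KO and 13663755, 8063121 and 25878074 for WT. Pou5f1 had 0 counts in all 6, with 3 counts standing for 0.125 to 0.136 CPM (counts scaled to the same library total) in KO and 0.117 to 0.41 CPM in WT libraries, so its transcript could not check the genotype labels. WT libraries 1 and 2 stood apart from the rest: they had 5.79 and 9.24 multimapping alignments per assigned one, against 1.56 in WT library 3 and 0.988 to 2.75 in the KO libraries. The summed level of 96 small nucleolar RNA genes was 1414, 10228 and 6707 CPM in the KO libraries, and 26567, 41755 and 4331 CPM in the WT libraries. KO library 1 had the most Rn45s, a ribosomal transcript, at 8.31% of its counts, against 3.75% and 4.56% in the other KO libraries and 4.2 to 7.09% in WT. Across genes, log-scale levels correlated at 0.987 to 0.990 within KO, 0.972 to 0.982 within WT and 0.917 to 0.936 between the genotypes.

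Markers of other cells were looked at first. Lymphocyte markers summed to 31 CPM in WT library 2 and to 0.678 to 1.42 CPM in each of the other 5 libraries. Cd79b, a B-cell receptor subunit, had 82 counts in WT library 2 and 0 in the other WT libraries. Of the 10 markers, 1 was tested, and Cd3e and Cd3d were at 0 throughout. That one was Cd79a, with 0.623, 0.407 and 1.02 CPM in the KO libraries, against 0.303, 7.51 and 0.586 CPM in the WT libraries, and its call as lower in KO did not hold without WT library 2 (log2 fold change 0.50, adjusted p = 0.493). The part of these transcripts in other differences was not tested, and each list count was also made without that library. Of 8 tested macrophage markers 1 rose and 3 fell. Their summed level was 360 to 480.1 CPM in the KO libraries and 119 to 137 CPM in the WT libraries. Lgals3, a galectin not restricted to macrophages, rose, at 390.4 CPM in KO cells and 101 CPM in WT cells, while Cd68 fell, at 2.66 CPM in KO cells and 6.45 CPM in WT cells, and Trem2 was at 0 in all 6 libraries. Endothelial markers gave 1 call among 8 tested, Vwf, which was lost without WT library 1, without KO library 3 or without the 3 shallowest culture libraries. Those 3 are WT libraries 1 and 2 and a KO vehicle library in hypoxia. Without them WT library 3 stands alone in its group, so its spread is assumed to be like that of other groups. Without WT library 2, the one with lymphocyte transcripts, 2 endothelial markers were called higher and 2 lower.

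The defining markers of contractile smooth muscle were scarce in both lines. Myh11, smooth muscle myosin heavy chain, had 0.374, 0.497 and 0.80 CPM in the KO libraries, against 0.303, 0.273 and 0.156 CPM in the WT libraries. Cnn1, calponin, had at most 0.41 CPM in any of the 6 libraries, and Des and Kcnmb1 did not pass the filter on low counts. Acta2, smooth muscle actin, averaged 27.4 CPM in KO cells and 18.8 CPM in WT cells. In WT cells given vehicle in normoxia it averaged 263 CPM, and Myh11 averaged 5.15 CPM. In that condition the median KO to WT log2 fold change of the contractile gene list was -1.01, against 0.48 with POVPC in hypoxia. It was -0.11 with POVPC in normoxia and 0.14 with vehicle in hypoxia.

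Of 14496 genes tested, 8351 (57.6%) were called, meaning an adjusted p below 0.05 in edgeR's quasi-likelihood test across all tested genes. Of the called genes, 4356 (30% of all tested genes) were higher and 3995 (27.6% of all tested) were lower in KO cells. Among them 2726 (18.8% of all tested) differed by at least 2-fold, 1274 upward and 1452 downward. With RLE size factors 3945 were higher and 4304 lower, so which direction was the more frequent depended on the scaling. The median log2 fold change over all tested genes was 0.02. For 8484 tested genes (58.5%) the KO and WT libraries did not overlap, so a lack of overlap was common. Since most genes were called, a list with a similar share of calls is like the background, and each list below is set against 30% higher and 27.6% lower. A fold against a group in which all 3 libraries were at 0 is given as a lower bound, with 3 counts over that group as the floor.

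Ccl2, the chemokine that draws monocytes into the vessel wall through the receptor CCR2, was lower in KO cells. It had 2.91, 2.94 and 4.44 CPM in the KO libraries, against 22.6, 24.2 and 22.7 CPM in the WT libraries. All 3 KO libraries lay below all 3 WT libraries (log2 fold change -2.75 ± 0.18 (SE), adjusted p = 8.11e-14). Its neighbour in function Ccl7, also a CCR2 ligand, had 0.997, 2.08 and 1.11 CPM in the KO libraries, against 15.5, 24.5 and 17.9 CPM in the WT libraries. That was the larger of the 2 falls, at -3.77 ± 0.21 on the log2 scale. Ccl8, another monocyte chemokine, fell too, at 0.0879 CPM in KO cells and 1.73 CPM in WT cells, with a log2 fold change of -4.17, or -5.12 without KO library 2. The neutrophil attractant Cxcl1 averaged 6.04 CPM in KO cells and 12.3 CPM in WT cells, and the membrane-bound chemokine Cx3cl1 averaged 5.21 CPM in KO cells and 8.76 CPM in WT cells. Of 11 chemokine genes tested out of 21 in the list, 6 fell and 2 rose, with a median log2 fold change of -1.06, or -0.80 with absent genes at their bound. The 2 that rose were Cxcl12, at 2339.5 ± 245 CPM in KO cells and 1382 ± 133 CPM in WT cells (SD, n = 3 each), and Ccl27a, at 5.2 CPM in KO cells and 2.18 CPM in WT cells. Ccl27a has near-identical copies, so its counts are uncertain. Among 6 tested chemokine receptors Cxcr7, the atypical receptor that binds CXCL12, fell to 11.5 CPM in KO cells, against 29.5 CPM in WT cells.

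**Figure D1:**
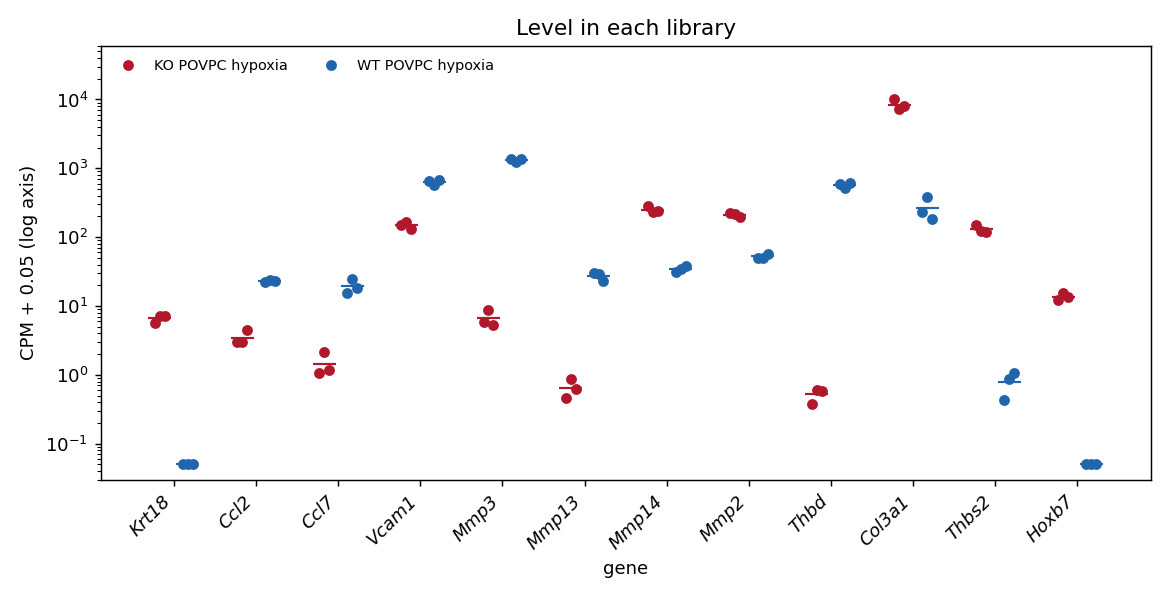
Level of 12 genes in each library, as CPM + 0.05 on a log axis, with KO libraries in red left of WT libraries in blue and a line at each group's mean. For all 12 genes the 3 KO libraries lie on one side of the 3 WT libraries, as was so for 58.5% of all tested genes. Krt18, Mmp14, Mmp2, Col3a1, Thbs2 and Hoxb7 are higher and Ccl2, Ccl7, Vcam1, Mmp3, Mmp13 and Thbd lower in KO.

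Of 22 tested interleukins, colony-stimulating factors and receptors, 12 fell and 6 rose (median log2 fold change -0.37), and 2 rose without the 3 shallowest culture libraries (WT libraries 1 and 2 and a KO vehicle library in hypoxia). Tnfrsf1b, the second receptor for tumour necrosis factor, had 16, 16.7 and 18.8 CPM in the KO libraries, against 87.5, 89.9 and 119 CPM in the WT libraries. The groups did not overlap (log2 fold change -2.53 ± 0.12 (SE), adjusted p = 3.62e-16). Il1r1, the signalling receptor of interleukin 1, averaged 7.47 CPM in KO cells and 20.3 CPM in WT cells. The oncostatin M receptor gene Osmr averaged 143 CPM in KO cells and 396 CPM in WT cells, and Lifr, the receptor of leukaemia inhibitory factor, averaged 47.8 CPM in KO cells and 143 CPM in WT cells. Their shared partner Il6st rose slightly, with a log2 fold change of 0.32 ± 0.08, and 543 CPM in KO cells and 433 CPM in WT cells. That call was lost without KO library 1 (log2 fold change 0.17, adjusted p = 0.0773) and without the 3 shallowest libraries (log2 fold change 0.20). Il33, an alarmin, averaged 55.8 CPM in KO cells and 112 CPM in WT cells. In the other direction Il11ra1, the receptor of interleukin 11, averaged 32.3 CPM in KO cells and 11 CPM in WT cells. It has a near-identical copy, so its counts are uncertain.

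Among NF-kB factors, inhibitors and adhesion targets 7 of 18 tested members fell and 3 rose. Vcam1, the adhesion molecule that monocytes bind, had 150.2, 166 and 133 CPM in the KO libraries, against 646, 579 and 672 CPM in the WT libraries. No KO library came near a WT one (log2 fold change -2.08 ± 0.08 (SE), adjusted p = 3.09e-19). Tnip3, an inhibitor of NF-kB signalling, fell to 0.638 CPM in KO cells, against 11.5 CPM in WT cells. Relb, a subunit of the noncanonical pathway, and Birc3, an NF-kB target that restrains cell death, had log2 fold changes of -1.08 ± 0.14 and -1.16 ± 0.14. Tnfaip3, which encodes the inhibitor A20, rose by 0.64 ± 0.09. The list's median of -0.16 was close to that of all genes.

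Most complement and acute-phase genes were lower. Of 15 tested members 11 were lower and 2 higher in KO cells, with a median log2 fold change of -2.24. Serpina3n, a serine protease inhibitor of the acute phase, had 0.249, 0.632 and 0.267 CPM in the KO libraries, against 28.5, 30.1 and 34.8 CPM in the WT libraries. C3, the central complement component, averaged 2.03 CPM in KO cells and 19.6 CPM in WT cells, and C4b, which has a near-identical copy and so uncertain counts, averaged 1.7 CPM in KO cells and 8.09 CPM in WT cells. C1s, a protease of the first complement complex, averaged 4.13 CPM in KO cells and 19.6 CPM in WT cells. Cd55, which protects host cells by speeding decay of the C3 convertase, also fell, with 83.5, 67.6 and 93.1 CPM in the KO libraries, against 520.1, 525 and 554 CPM in the WT libraries. Activators and a protective regulator were thus both among the genes that fell. Of 19 tested interferon-response genes 9 fell and 3 rose (median log2 fold change -0.84), and the number that fell was 5 without the 3 shallowest culture libraries. Irf1, a transcription factor induced by interferon gamma, averaged 40.1 CPM in KO cells and 127 CPM in WT cells, and the GTPase gene Gbp2 averaged 3.65 CPM in KO cells and 41.2 CPM in WT cells. Mx1, an antiviral GTPase, was higher, at 6.96 CPM in KO cells and 1.86 CPM in WT cells. Stat2, a transcription factor of the interferon pathway, fell, with a log2 fold change of -1.25 ± 0.12. In prostanoid synthesis 5 of 15 tested members fell and 2 rose (median log2 fold change -0.27), or 1 without WT library 3. Both cyclooxygenase genes were lower: Ptgs1 averaged 21.6 CPM in KO cells and 67.7 CPM in WT cells, and Ptgs2 averaged 14.8 CPM in KO cells and 51.9 CPM in WT cells. Ptgis, prostacyclin synthase, averaged 75.4 CPM in KO cells and 196 CPM in WT cells.

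Krt18, a keratin of simple epithelia, was detected in all 3 KO libraries and in none of the WT libraries. It had 5.61, 7.14 and 7.02 CPM in the KO libraries, against 0 in all 3 WT libraries. The KO level was at least 101-fold higher. Its filament partner Krt8 averaged 2.55 CPM in KO cells and 0.256 CPM in WT cells, with a log2 fold change of 3.08 ± 0.59. In the other KO cultures Krt18 averaged 0.598 CPM with vehicle in normoxia, 4.99 CPM with vehicle in hypoxia and 0.512 CPM with POVPC in normoxia, and in the other WT cultures it did not exceed a mean of 0.0234 CPM. The list of keratins and junction proteins of epithelia, which also holds the mesenchymal Vim, had 12 of its 21 members tested. Of these, 8 rose and 0 fell (median log2 fold change 1.04). Dsp, desmoplakin, had 44.7, 36.3 and 41.1 CPM in the KO libraries, against 4.24, 5.46 and 3.52 CPM in the WT libraries. Jup, plakoglobin, averaged 273 CPM in KO cells and 71.3 CPM in WT cells, and Cldn1, a tight-junction claudin, averaged 8.77 CPM in KO cells and 0.387 CPM in WT cells. Vim, the mesenchymal filament, averaged 5766 CPM in KO cells and 6453 CPM in WT cells and was not called here. It was called lower in KO in 11 of 17 alternatives, with a log2 fold change of -0.37 without the 3 shallowest libraries. The absence of falls in the keratin and junction list did not hold in most alternatives. With RLE size factors, DESeq2, no filter, the 5 CPM filter or halved counts 1 member fell. The same number fell without structural RNA genes, with the groups fitted alone, and without WT library 2 or KO library 2. Without KO library 1, 2 fell. Fewer members rose without the 3 shallowest libraries, and a fall was called there too.

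Mesothelial and adventitial fibroblast markers were higher as well. Of 8 tested mesothelial markers 6 rose and 1 fell (median log2 fold change 1.02). Bnc1, a zinc-finger factor of mesothelium, averaged 4.59 CPM in KO cells and 0.579 CPM in WT cells, Upk3b, a uroplakin, averaged 6.16 CPM in KO cells and 2.24 CPM in WT cells, and Msln, mesothelin, averaged 7.54 CPM in KO cells and 4.58 CPM in WT cells. The uroplakin gene Upk1b fell, at 2.39 CPM in KO cells and 9.05 CPM in WT cells, and Wt1 did not pass the filter on low counts. Of 14 adventitial fibroblast markers 11 rose and none fell, with a median log2 fold change of 0.89. Dpt, dermatopontin, had 266, 279 and 205 CPM in the KO libraries, against 14.5, 10.1 and 11.5 CPM in the WT libraries. Pi16, a peptidase inhibitor of adventitial fibroblasts, had 31.9, 32.3 and 28.5 CPM in the KO libraries, against 3.56, 4.1 and 3.32 CPM in the WT libraries. Both rose without overlap, at 4.36 ± 0.17 and 3.12 ± 0.13 on the log2 scale. Clec3b averaged 4.3 CPM in KO cells and 0.192 CPM in WT cells, and Cd34 averaged 3.65 CPM in KO cells and 1.13 CPM in WT cells. The log2 fold change of Cd34 was 1.57, or 2.40 without WT library 3. Thy1 was listed at 0 in all 6 libraries. Without the 3 shallowest libraries 8 adventitial and 4 mesothelial markers rose. Adventitial, mesothelial and epithelial transcripts are given here as levels in bulk RNA, where a larger share of such cells and more RNA per cell cannot be told apart.

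Contractile genes did not move one way. Of 16 tested members 7 rose and 2 fell (median log2 fold change 0.48), and 3 rose without the 3 shallowest libraries. Tagln, an actin-binding protein of smooth muscle, had 7.47, 6.05 and 9.69 CPM in the KO libraries, against 2.12, 2.19 and 2.77 CPM in the WT libraries. KO libraries lay above WT libraries (log2 fold change 1.66 ± 0.20 (SE), adjusted p = 2.62e-08). Myl9, a myosin light chain, averaged 2.51 CPM in KO cells and 0.181 CPM in WT cells, with a log2 fold change of 3.28, or 4.62 without WT library 3 and 2.63 without the 3 shallowest libraries. Mylk, myosin light-chain kinase, had 0.083, 0.0904 and 0.178 CPM in the KO libraries, against 3.41, 6.28 and 3.24 CPM in the WT libraries. It was close to absent in KO cells (log2 fold change -5.03 ± 0.45 (SE), adjusted p = 1.94e-10). Acta2 rose by 0.51 ± 0.21, but its libraries overlapped between the groups. It had 32.7, 16.6 and 33 CPM in the KO libraries, against 16.5, 15.6 and 24.3 CPM in the WT libraries. The call was lost in 10 of 17 alternatives, with a log2 fold change of 0.15 without the 3 shallowest libraries. Of 15 tested regulators of the program 8 rose and 3 fell (median log2 fold change 0.33), but 1 fell without WT library 3 and 5 without KO library 1. Mef2c, a MADS-box factor, had 14.3, 18 and 13.9 CPM in the KO libraries, against 0.151, 0.82 and 0.0782 CPM in the WT libraries. Its log2 fold change was 6.09, and 5.27 to 7.12 with 1 library of either group left out, or 7.50 without the 3 shallowest libraries. Prrx1, a homeobox factor of mesenchyme, averaged 509 CPM in KO cells and 127 CPM in WT cells. Klf4, which represses contractile genes, averaged 394 CPM in KO cells and 281 CPM in WT cells, a log2 fold change of 0.49 ± 0.09. Klf2, a flow-induced relative, fell, at 7.77 CPM in KO cells and 19.6 CPM in WT cells. Of the pluripotency factors, Nanog, Sox2 and Lin28a did not pass the filter, and Tfcp2l1, a factor of the naive pluripotent state, had 466, 401 and 444 CPM in the KO libraries, against 168, 155 and 128 CPM in the WT libraries.

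Matrix metalloproteinases split into a set that fell steeply and a set that rose. Of 15 tested members and inhibitors 7 fell and 5 rose (median log2 fold change -0.68). Mmp3, stromelysin 1, had 5.77, 8.72 and 5.29 CPM in the KO libraries, against 1356, 1251 and 1369 CPM in the WT libraries. No KO library came near a WT library (log2 fold change -7.65 ± 0.23 (SE), adjusted p = 3.42e-16). Mmp10, stromelysin 2, had 0, 0.0452 and 0.0444 CPM in the KO libraries, against 4.69, 6.42 and 5.59 CPM in the WT libraries. Mmp13, a collagenase, had 0.415, 0.813 and 0.578 CPM in the KO libraries, against 29.7, 28.8 and 22.9 CPM in the WT libraries. For each of them the KO libraries lay far below the WT libraries, with log2 fold changes of -7.32 ± 0.48 for Mmp10 and -5.48 ± 0.23 for Mmp13. All 3 lie on chromosome 9 in the metalloproteinase cluster, on the plus strand. The 100 bases before their transcription starts are shown because these are the 3 members that fell most. They come from RefSeq (GRCm38.p6) and are written 5′ to 3′, with a TGANTCA match, the binding motif of AP-1, in capitals.
Mmp3, chr9:7445722-7445821: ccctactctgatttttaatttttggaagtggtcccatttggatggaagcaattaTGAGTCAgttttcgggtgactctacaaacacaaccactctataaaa
Mmp10, chr9:7502242-7502341: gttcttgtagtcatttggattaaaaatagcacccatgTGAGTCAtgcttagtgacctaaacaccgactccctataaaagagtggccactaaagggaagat
Mmp13, chr9:7272414-7272513: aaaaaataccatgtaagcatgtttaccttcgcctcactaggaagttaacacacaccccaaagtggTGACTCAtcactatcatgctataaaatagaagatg
The motif starts 46 bases before the start site in Mmp3, 63 in Mmp10 and 35 in Mmp13. TGANTCA reads the same on both strands, and 2.73% of the 32851 RefSeq promoter windows of that length hold it. Of the 11 tested members of the list with a promoter in that table, these 3 hold it. Among all tested genes with a promoter there, 2.22% hold it. The share was 4.04% of genes at least 2-fold lower in KO and 2.36% of those at least 2-fold higher. A match describes the sequence only and was not tested as a site.

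AP-1 and other immediate-early genes themselves moved both ways: of 16 tested 4 rose and 7 fell (median log2 fold change -0.48). Junb averaged 35.6 CPM in KO cells and 103 CPM in WT cells, and Maff averaged 36.9 CPM in KO cells and 109 CPM in WT cells, both lower in KO. Jun averaged 93.3 CPM in KO cells and 46.6 CPM in WT cells, and Jund averaged 448 CPM in KO cells and 198 CPM in WT cells, both higher in KO. Fosl2 did not pass the threshold, at 225 CPM in KO cells and 201 CPM in WT cells.

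The membrane-bound and gelatinase members went the other way. Mmp14, the membrane type 1 enzyme that activates pro-MMP2, had 283, 233 and 238 CPM in the KO libraries, against 31, 34.6 and 38.5 CPM in the WT libraries. Mmp2, gelatinase A, had 224, 216 and 199 CPM in the KO libraries, against 50.3, 49.9 and 56.9 CPM in the WT libraries. Mmp16 rose as well, at 41.5 CPM in KO cells and 8.86 CPM in WT cells. Of the inhibitors, Timp3 fell, at 292 CPM in KO cells and 847 CPM in WT cells, while Timp2, at 1417 CPM in KO cells and 1531 CPM in WT cells, did not pass the threshold. Timp2 was called lower without WT library 2 (adjusted p = 0.0346), without KO library 1 (adjusted p = 0.0495) and without the 3 shallowest libraries (log2 fold change -0.37). Adamts1, a versican-cleaving protease, averaged 436 CPM in KO cells and 74.7 CPM in WT cells, and of 11 tested ADAMTS genes 5 rose and 2 fell (median log2 fold change 0.35), or 1 fell without WT library 3, KO library 1 or KO library 3.

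The fibrillar collagens moved in opposite directions. Col3a1, type III collagen, had 10089, 7166 and 8085 CPM in the KO libraries, against 229.6, 378 and 186 CPM in the WT libraries. All 3 KO libraries lay far above the WT libraries (log2 fold change 4.999 ± 0.20 (SE), adjusted p = 8.42e-14). Col1a1 and Col1a2, the chains of type I collagen, fell, with means of 228 CPM in KO cells and 580.4 CPM in WT cells and of 174 CPM in KO cells and 342 CPM in WT cells. Of 19 collagens tested 7 rose and 6 fell (median log2 fold change 0.19), and 4 rose without KO library 1. Thbs2, a thrombospondin that inhibits angiogenesis, had 152, 123 and 118 CPM in the KO libraries, against 0.378, 0.82 and 1.02 CPM in the WT libraries. Ogn, a small leucine-rich proteoglycan, averaged 91 CPM in KO cells and 9.59 CPM in WT cells, and Aspn, asporin, averaged 12.6 CPM in KO cells and 0.573 CPM in WT cells. Fn1, fibronectin, Thbs1 and Vcan, versican, did not pass the threshold. Vcan was called lower in 5 of 17 alternatives. These were RLE size factors, DESeq2, and leaving out WT library 2, KO library 1 or the 3 shallowest libraries (log2 fold change -0.35). Of 18 tested matricellular proteins and proteoglycans 8 rose and 4 fell (median log2 fold change 0.65). In the elastic-fibre list 8 of 18 fell and 4 rose (median log2 fold change 0.02). Lox, the crosslinking oxidase, averaged 458 CPM in KO cells and 1103 CPM in WT cells, whereas its relative Loxl2 averaged 749 CPM in KO cells and 175 CPM in WT cells. Fbn1, fibrillin 1, averaged 963 CPM in KO cells and 338 CPM in WT cells, and Fbln5, fibulin 5, averaged 347 CPM in KO cells and 108 CPM in WT cells. Eln, elastin, had 0, 0 and 0.0444 CPM in the KO libraries, against 1.51, 2.87 and 0.469 CPM in the WT libraries. Its log2 fold change was -5.95, but -6.67 without WT library 3, -7.84 without KO library 3, -4.95 with halved counts and -4.63 without the 3 shallowest libraries. Cell-matrix receptors were mostly lower: 11 of 19 integrin genes fell and 3 rose (median log2 fold change -0.77), or 1 without KO library 1. Itga7, a laminin receptor chain of muscle, averaged 4.97 CPM in KO cells and 34.4 CPM in WT cells, and Itgb5 averaged 78.3 CPM in KO cells and 209 CPM in WT cells.

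Thbd, thrombomodulin, the cofactor through which thrombin activates protein C, had the steepest fitted fall among the named genes detected in both lines. It had 0.332, 0.542 and 0.533 CPM in the KO libraries, against 592, 524 and 606 CPM in the WT libraries. The KO level was near the floor of counting (log2 fold change -10.25 ± 0.16 (SE), adjusted p = 2.56e-27). Of 15 tested coagulation and fibrinolysis genes 8 fell and 4 rose (median log2 fold change -0.63). Plaur, the urokinase receptor, averaged 12.3 CPM in KO cells and 78.3 CPM in WT cells. Serpine2, protease nexin 1, rose, with 123, 136 and 126 CPM in the KO libraries, against 2.72, 5.46 and 4.89 CPM in the WT libraries. Plat, tissue plasminogen activator, averaged 313 CPM in KO cells and 135 CPM in WT cells.

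Hox genes were among the largest differences. They record a cell's place along the body axis and are kept in culture. Of 25 tested out of 39 listed, 15 rose and 3 fell, with a median log2 fold change of 4.66, or 2.74 with absent genes at their bound. Hoxb7 had 12.1, 15.6 and 13.2 CPM in the KO libraries, against 0 in all 3 WT libraries, and its level was at least 209.9-fold higher in KO. Hoxb9 had 11.5, 12.7 and 13.6 CPM in the KO libraries, against 0.151, 0 and 0 CPM in the WT libraries. Its log2 fold change was 8.01, but 11.22 without WT library 1, 11.29 without the 3 shallowest libraries and 6.94 without WT library 3. Hoxb6 averaged 33.5 CPM in KO cells and 0.466 CPM in WT cells, and Hoxa7 averaged 17.5 CPM in KO cells and 0.22 CPM in WT cells. Hoxb8, Hoxc6 and Hoxc9 averaged 2.28, 3.72 and 3.06 CPM in KO cells and were at 0 in all 3 WT libraries. At the other end of the HoxB cluster, Hoxb2 averaged 13.1 CPM in KO cells and 13.8 CPM in WT cells. Hoxb3 averaged 9.39 CPM in KO cells and 10.6 CPM in WT cells, and neither was called. Hoxb4 fell, at 17.1 CPM in KO cells and 27.5 CPM in WT cells. Chosen after their values were seen, Hoxa4 and Hoxc13 were the other two that fell. The call of Hoxa4 was lost without WT library 3 (adjusted p = 0.0527) and without KO library 2 (adjusted p = 0.0708). It was also lost without the 3 shallowest libraries (log2 fold change -1.015). With only genes above 5 CPM kept, 9 of the Hox genes were called higher. Counting did not use strand, so reads from antisense transcripts of the clusters cannot be told apart.

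**Figure D2:**
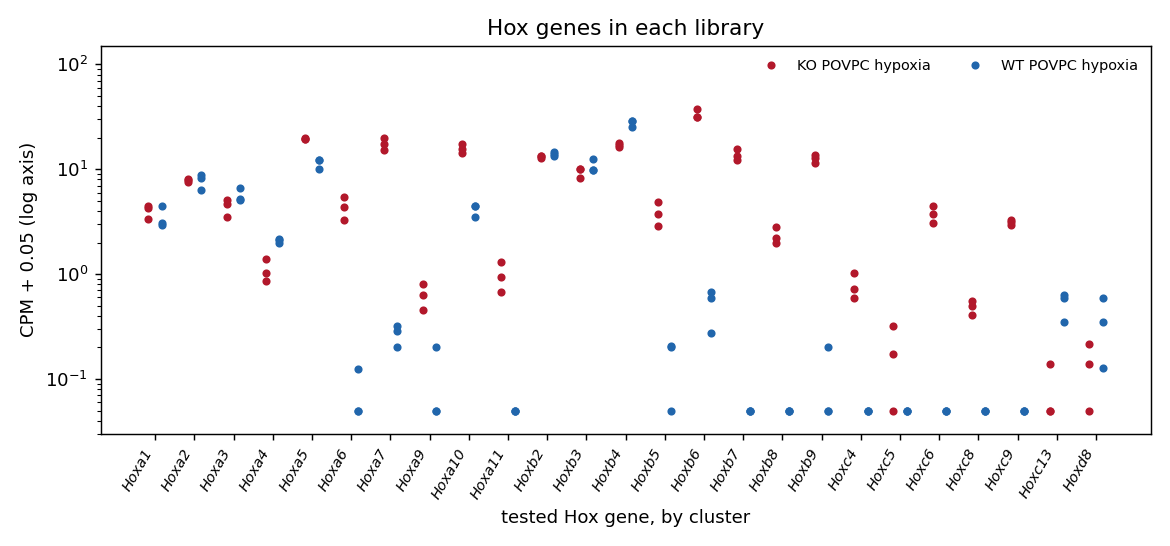
Level of each of the 25 tested Hox genes in each library, as CPM + 0.05 on a log axis, with KO libraries in red left of WT libraries in blue and genes ordered by cluster. From Hoxa6 to Hoxa11, from Hoxb5 to Hoxb9 and from Hoxc4 to Hoxc9 the KO points lie above the WT points, except that 1 KO library has Hoxc5 at 0, and Hoxb2 and Hoxb3 of both lines lie near 10 CPM.

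Other positional factors moved both ways. Nkx2-3, a homeobox factor of gut and spleen mesenchyme, had 14.6, 17.8 and 14 CPM in the KO libraries, against 0 in all 3 WT libraries. The KO level was at least 238-fold higher. Tbx3, a T-box factor, went the opposite way, with 0, 0 and 0.0444 CPM in the KO libraries, against 4.62, 2.73 and 4.61 CPM in the WT libraries, and a log2 fold change of -7.68, or -9.57 without KO library 3 and -6.76 with halved counts. Rorb, an orphan nuclear receptor, averaged 0.351 CPM in KO cells and 6.98 CPM in WT cells, with a log2 fold change of -4.32, or -5.001 without KO library 3. Of 19 tested outside Hox 11 rose and 6 fell (median log2 fold change 0.57). Hoxb7 was higher in KO in each of the other culture conditions too. It averaged 8.96, 14.6 and 10.2 CPM in KO cells with vehicle in normoxia, vehicle in hypoxia and POVPC in normoxia, and its WT means there were 0, 0 and 0.0142 CPM.

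The remaining genes of the naming rule also came close to presence or absence. Xlr, an X-linked lymphocyte-regulated gene, had 0 in all 3 KO libraries, against 43.9, 62.6 and 37.2 CPM in the WT libraries, at least 1097-fold lower in KO. Xlr belongs to a family of near-identical copies, so its counts are uncertain. Dmrt2, Dcaf12l1, C1ql1, Nrap and Sntg2 were at 0 in all 3 KO libraries and averaged 4.73, 3.9, 3.58, 2.64 and 2.07 CPM in WT cells. Kng1, kininogen, averaged 0.0301 CPM in KO cells and 11.2 CPM in WT cells. Its log2 fold change was -8.39, or -11.07 without KO library 2. Adrbk2, a kinase that acts on receptors, averaged 0.0724 CPM in KO cells and 8.43 CPM in WT cells. Among rises, Lphn3, Megf10, Grm7 and Lpl, lipoprotein lipase, averaged 5.5, 4.45, 3.41 and 2.23 CPM in KO cells and were at 0 in all 3 WT libraries. Eps8l2, an actin regulator, had 61.6, 61.4 and 57.8 CPM in the KO libraries, against 0.378, 0 and 0.234 CPM in the WT libraries.

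Most genes of cholesterol synthesis were lower. Of 22 tested members 19 fell and none rose, with a median log2 fold change of -0.59, and 16 to 19 fell and none rose in every alternative run. Cyp51, lanosterol demethylase, had 1698, 1329 and 1828 CPM in the KO libraries, against 2501, 2222 and 2628 CPM in the WT libraries. Sc4mol, a sterol methyl oxidase, averaged 941 CPM in KO cells and 1908 CPM in WT cells. Insig1, which holds SREBP in the endoplasmic reticulum and is itself an SREBP target, averaged 1316 CPM in KO cells and 2635 CPM in WT cells. Ebp and Nsdhl, late enzymes, averaged 98.8 CPM in KO cells and 265 CPM in WT cells, and 77.2 CPM in KO cells and 204 CPM in WT cells. Tm7sf2, a sterol reductase, averaged 21.4 CPM in KO cells and 59.9 CPM in WT cells. Fdft1, squalene synthase, did not pass the threshold, at 900.0 CPM in KO cells and 891 CPM in WT cells. Of the genes for lipid uptake, efflux and storage 8 of 17 rose and 5 fell (median log2 fold change 0.16). Nr1h3, the oxysterol receptor LXR alpha, averaged 0.659 CPM in KO cells and 10.5 CPM in WT cells, and Mylip, which targets the LDL receptor for degradation, averaged 35.2 CPM in KO cells and 14.3 CPM in WT cells.

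Of 22 unfolded-protein and ATF4 genes 16 fell and 3 rose (median log2 fold change -0.45), and 12 fell with library size alone. Hspa5, the chaperone BiP, had 1059, 999 and 1159 CPM in the KO libraries, against 2102, 1835 and 2112 CPM in the WT libraries. Hsp90b1 averaged 389.8 CPM in KO cells and 881 CPM in WT cells, and Xbp1, a factor of the response, averaged 43.7 CPM in KO cells and 112 CPM in WT cells. Sesn2 rose, at 61.1 CPM in KO cells and 20.4 CPM in WT cells. Of 24 NRF2 targets, the antioxidant genes that oxidized lipids are known to induce, 16 fell and 5 rose, with a median of -0.42. The number that fell was 12 without WT library 3, and 13 without WT library 1 or with library size alone. Gclc, the catalytic subunit of glutathione synthesis, had 102, 104 and 116 CPM in the KO libraries, against 449, 394 and 464 CPM in the WT libraries. Slc7a11, the cystine importer, averaged 51.1 CPM in KO cells and 175 CPM in WT cells, and Srxn1 averaged 80.02 CPM in KO cells and 169 CPM in WT cells. Ftl1, ferritin light chain, went the other way, at 1316 CPM in KO cells and 394 CPM in WT cells, a gene with many processed copies whose counts are uncertain. Heat-shock genes were split, with 7 of 16 higher and 7 lower (median log2 fold change -0.09), and 4 higher without WT library 2.

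**Figure D3:**
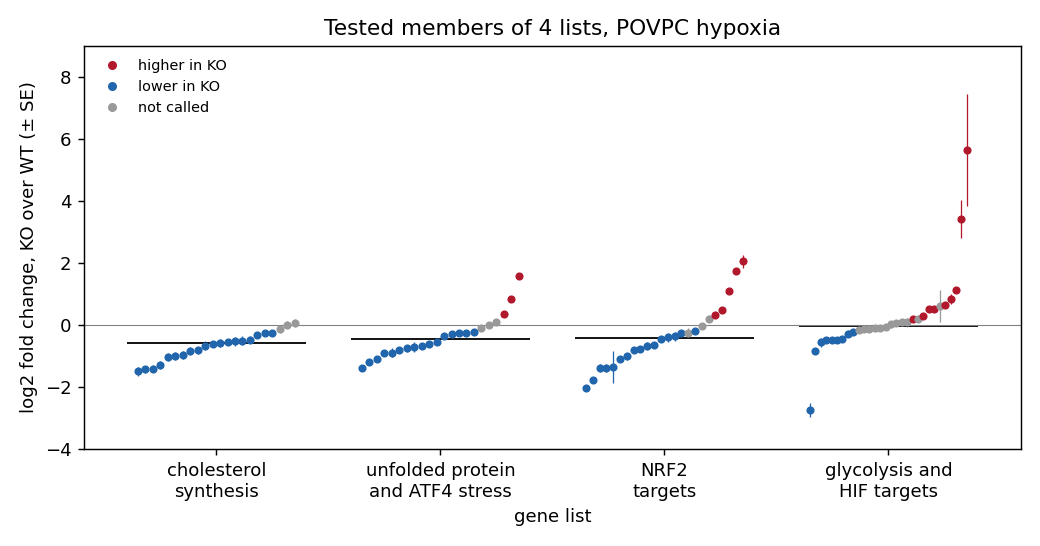
Log2 fold change, KO over WT, of each tested member of 4 lists, with SE as bars, in order of size within a list, and the list's median as a line. No called member of the cholesterol list lies above 0, while the glycolysis and HIF list has 9 called members on each side of it. The topmost gene of that list, Slc2a3, was at 0 in WT, and its fitted value depends on the prior count.

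Glycolysis and hypoxia targets did not shift together. Of 30 tested members 9 rose and 9 fell, shares of the same order as over all genes, and the median was -0.02. Ldha, lactate dehydrogenase A, averaged 5777 CPM in KO cells and 3695 CPM in WT cells, and Gpi1, glucose phosphate isomerase, averaged 2352 CPM in KO cells and 1071 CPM in WT cells, both higher in KO. Aldoc averaged 1.82 CPM in KO cells and 11.9 CPM in WT cells, and P4ha1, a collagen prolyl hydroxylase, averaged 785 CPM in KO cells and 1396 CPM in WT cells, both lower in KO. Aldoa and Tpi1 did not pass the threshold. Aldoa was called lower in 5 of 17 alternatives. These were RLE size factors, DESeq2, and leaving out WT library 2, KO library 1 or the 3 shallowest libraries (log2 fold change -0.36). Hif1a averaged 281 CPM in KO cells and 288 CPM in WT cells and was not called. Of 13 tested HIF subunits and oxygen sensors 8 rose and 2 fell (median log2 fold change 0.53). Egln1, the main oxygen-sensing prolyl hydroxylase, averaged 502 CPM in KO cells and 291 CPM in WT cells, and Kdm4c, a histone demethylase, averaged 74.4 CPM in KO cells and 31 CPM in WT cells. Among angiogenic factors and receptors 11 of 23 rose and 5 fell (median log2 fold change 0.35). Vegfa averaged 153 CPM in KO cells and 221 CPM in WT cells, lower in KO, and Vegfc averaged 0.577 CPM in KO cells and 6.87 CPM in WT cells. Fgf7, a growth factor for epithelia, had 19.97, 26.8 and 17 CPM in the KO libraries, against 0.454, 0.546 and 0.234 CPM in the WT libraries. Calcrl, the adrenomedullin receptor chain, had 47.1, 54.8 and 49.8 CPM in the KO libraries, against 0.454, 0.546 and 0.938 CPM in the WT libraries, and Pdgfrb averaged 98.4 CPM in KO cells and 39.2 CPM in WT cells.

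Of 22 tested mitotic genes 10 fell, 2 rose and 10 were not called (median log2 fold change -0.63). Without KO library 1, 8 fell and 1 rose, and 7 fell with the compared groups fitted alone. Mki67, a proliferation marker, had 0.997, 1.04 and 1.38 CPM in the KO libraries, against 3.25, 7.1 and 3.79 CPM in the WT libraries. Top2a averaged 5.18 CPM in KO cells and 11.8 CPM in WT cells, and Cdk1 averaged 1.14 CPM in KO cells and 3.75 CPM in WT cells. Replication genes showed no common direction, with 6 of 22 higher and 7 lower (median log2 fold change -0.06). Of 16 cell cycle inhibitors and p53-axis genes 8 rose and 3 fell (median log2 fold change 0.25). Among the rises were Cdkn1a, p21, at 211 CPM in KO cells and 129 CPM in WT cells, Cdkn2b, p15, at 53.1 CPM in KO cells and 29.5 CPM in WT cells, and Bax, at 234 CPM in KO cells and 94.5 CPM in WT cells.

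In the Notch pathway 7 of 14 fell and 1 rose (median log2 fold change -0.58). The target Hes1 averaged 20.3 CPM in KO cells and 66.7 CPM in WT cells, the ligands Jag2 and Dll1 averaged 2.12 CPM in KO cells and 10.9 CPM in WT cells, and 2.82 CPM in KO cells and 8.85 CPM in WT cells, and the ligand Jag1 rose, at 215 CPM in KO cells and 105 CPM in WT cells. In the Wnt list 7 of 28 rose and 6 fell (median log2 fold change 0.11). Sfrp4, a secreted inhibitor, had 18.4, 14.1 and 18.6 CPM in the KO libraries, against 0.378, 0 and 0.117 CPM in the WT libraries. Its log2 fold change was 6.57, or 7.47 without WT library 1. Wnt5a, a noncanonical ligand, averaged 1.7 CPM in KO cells and 11.9 CPM in WT cells. In the TGF-beta and BMP list 9 of 27 rose and 10 fell (median log2 fold change -0.14), with the BMP antagonist Grem1 at 6.44 CPM in KO cells and 32.7 CPM in WT cells, and Id1, a BMP target, at 32.3 CPM in KO cells and 79 CPM in WT cells. Among insulin-like growth factor genes 6 of 17 rose and 8 fell (median log2 fold change -0.24), with Igfbp2 at 0.231 CPM in KO cells and 15.5 CPM in WT cells, Stc1 at 0.43 CPM in KO cells and 14.4 CPM in WT cells, and the adaptor Irs1 at 176 CPM in KO cells and 44.4 CPM in WT cells. Of 24 guidance genes 11 rose and 10 fell (median log2 fold change 0.08). Robo1 and Robo2, receptors of Slit proteins, averaged 3.54 CPM in KO cells and 57.3 CPM in WT cells, and 0.0578 CPM in KO cells and 5.9 CPM in WT cells. Sema3d rose, at 116 CPM in KO cells and 27.1 CPM in WT cells, and Sema3c fell, at 61.7 CPM in KO cells and 304 CPM in WT cells. Of 15 lysosomal genes 10 fell and 3 rose (median log2 fold change -0.67), or 1 without WT library 2 or without KO library 1. Ctsk, cathepsin K, averaged 1.97 CPM in KO cells and 31 CPM in WT cells, and Ctsd averaged 886 CPM in KO cells and 1433 CPM in WT cells, while Ctsh rose, at 516 CPM in KO cells and 199.8 CPM in WT cells. In the osteochondrogenic list 3 of 12 rose and 4 fell (median log2 fold change -0.02), and Tnfrsf11b, osteoprotegerin, averaged 30.5 CPM in KO cells and 123 CPM in WT cells.

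**Figure D4:**
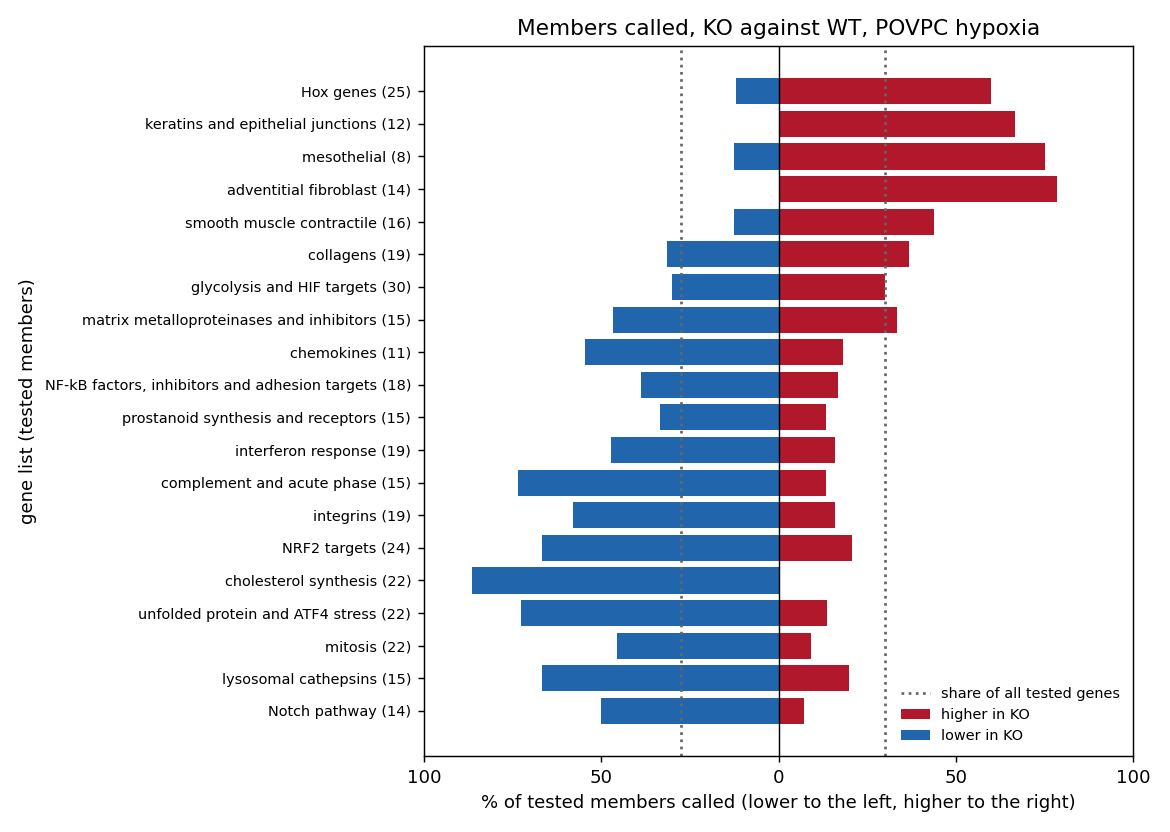
Share of the tested members of 20 gene lists called higher (red, to the right) or lower (blue, to the left) in KO cells, with the number tested in brackets and dotted lines at the shares over all tested genes, 30% and 27.6%. Cholesterol synthesis has the longest bar to the left, 19 of 22, and adventitial fibroblast markers the longest to the right, 11 of 14.

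Most of the larger differences were also present in the other cultures of the same lines. Of the 2726 genes that differed by at least 2-fold, 1986 were called in the same direction with POVPC in normoxia, 2298 with vehicle in hypoxia and 1808 with vehicle in normoxia, and 1575 in all of them. These comparisons share no library with one another, but they share the 2 lines. In the opposite direction 119, 10 and 198 were called. Over all 14496 tested genes, calls in either direction numbered 8729 with POVPC in normoxia, 8689 with vehicle in hypoxia and 8778 with vehicle in normoxia.

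Whether oxygen changed the genotype difference under POVPC was tested as the KO to WT log2 fold change in hypoxia minus that in normoxia. This difference was called for 4354 genes (30%), positive for 2273 (15.7%) and negative for 2081 (14.4%). Negative calls were the more numerous with RLE size factors (1971 positive and 2379 negative), with DESeq2 (2066 and 2540), without WT library 2 (1791 and 2299) and without KO library 1 (1661 and 2237), so which sign was the more frequent depended on the scaling and on single libraries. Prelp, a proteoglycan of connective tissue, averaged 11.9 CPM in KO and 0.233 CPM in WT cells in hypoxia, against 61.8 and 34.4 CPM in KO and WT cells in normoxia (difference 4.26 ± 0.56 (SE), adjusted p = 8.83e-06), and the difference was 6.01 without WT library 3 and 3.54 without the 3 shallowest libraries. Lum, lumican, showed the same shape, with 0.73 CPM in KO and 0 in WT in hypoxia, and 67.6 and 19.7 CPM in KO and WT in normoxia. Myo5b, a vesicle motor, was higher in KO in hypoxia, at 9.68 CPM in KO cells and 3.24 CPM in WT cells, and averaged 1.65 CPM in KO and 16.7 CPM in WT cells in normoxia. On the negative side Kctd12 averaged 12 CPM in KO cells and 12.6 CPM in WT cells in hypoxia, and 41.4 CPM in KO and 1.33 CPM in WT cells in normoxia (difference -5.01 ± 0.20 (SE), adjusted p = 1.29e-17). Dhrs9, a retinol dehydrogenase, and Kif5c, a kinesin, likewise were at similar levels in both lines in hypoxia and higher in KO in normoxia, with differences of -5.09 ± 0.28 and -4.78 ± 0.41. Lgr6, a receptor of R-spondins, averaged 0.864 CPM in KO cells and 10.7 CPM in WT cells in hypoxia, and 5.3 and 3.39 CPM in KO and WT in normoxia. Ccl2 was lower in KO at both oxygen levels, and the fall was smaller in hypoxia by 1.67 ± 0.28. Its normoxic means with POVPC were 0.695 CPM in KO and 14.9 CPM in WT cells. By list, replication genes had 14 positive and no negative calls among 22, and guidance genes had 12 negative and 1 positive among 24. Replication genes had 12 to 14 positive and no negative calls, and guidance genes 11 to 14 negative and at most 2 positive, in every alternative run.

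Whether POVPC changed the genotype difference in hypoxia was tested as the KO to WT log2 fold change with POVPC minus that with vehicle. It was called for 1358 genes (9.37%), positive for 854 (5.89%) and negative for 504 (3.48%). With library size alone as the scaling 1051 were called, 847 positive and 204 negative, and DESeq2 called 908 positive and 847 negative, while without the 3 shallowest culture libraries 426 were called in all. The split by sign therefore depended on the scaling. Ctgf, a matricellular target of TGF-beta, averaged 285 CPM in KO cells and 309.6 CPM in WT cells with POVPC, and 205 CPM in KO and 1079 CPM in WT cells with vehicle. Its difference was 2.27 ± 0.15 (SE), adjusted p = 3.39e-11, and that of Tagln was 2.45 ± 0.25 (SE), adjusted p = 1.25e-07. Tagln averaged 13.7 CPM in KO and 23.9 CPM in WT cells with vehicle, so the order of the lines was the opposite of that with POVPC. Upk3b showed the same order of means, with 14 CPM in KO and 28.6 CPM in WT cells with vehicle (difference 2.52 ± 0.36). Tfcp2l1 averaged 475 CPM in KO and 27.2 CPM in WT cells with vehicle, and its KO to WT difference was smaller with POVPC (-2.58 ± 0.15 (SE), adjusted p = 3.52e-12). Ccl2 and Ccl7 fell further below WT with POVPC: their differences were -1.20 ± 0.26 and -1.81 ± 0.36, with vehicle means of 2.63 and 7.71 CPM for Ccl2 in KO and WT cells, and 1.33 and 4.91 CPM for Ccl7. These values and those of the oxygen test share the POVPC hypoxia libraries. By list, unfolded-protein and ATF4 genes and glycolysis and HIF targets each had 10 positive and no negative calls, among 22 and 30 tested. Without the 3 shallowest libraries they had 0 and 3 positive calls, and without KO library 3 the stress list had 6.

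**Figure D5:**
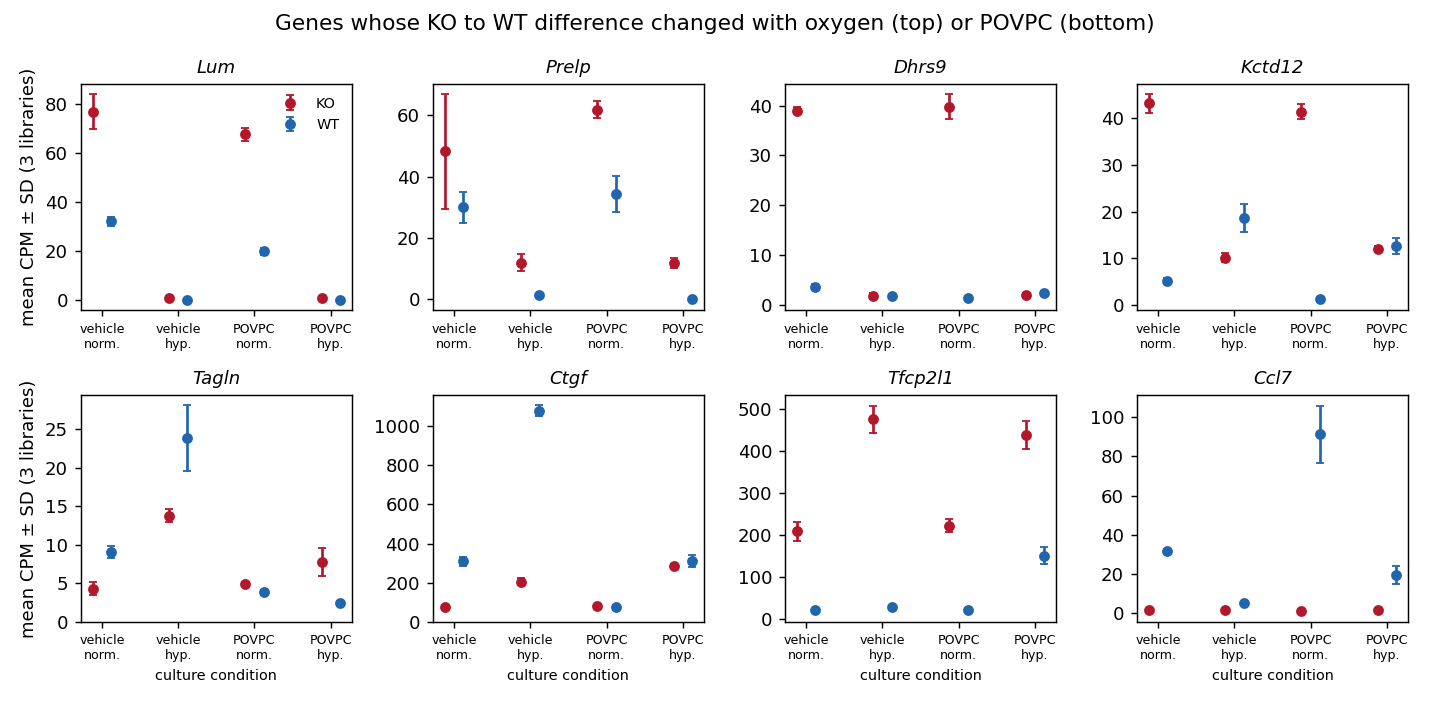
Mean CPM with SD over 3 libraries for 8 genes in the 8 culture groups, KO in red left of WT in blue, in 4 conditions from vehicle in normoxia to POVPC in hypoxia. In the top row the gap between the lines differs between normoxia and hypoxia with POVPC, and in the bottom row the gap in hypoxia differs between vehicle and POVPC.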

How the data were processed

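The culture table holds raw read counts per gene for 24 libraries, which the authors made with featureCounts 1.4.4 on UCSC mm9 gene names, per the file headers, with mates counted separately, strand ignored and multimapping alignments left out. The submitters' processing notes also name CASAVA, STAR and DESeq2. Library totals of the 6 compared libraries were 8063121 to 25878074 counts. Floors of 3 counts cover counting error only, while each SE or SD also holds the spread between libraries. Counts were normalised by TMM and fitted with edgeR 4.0.16 (R 4.3.3) over all 24 libraries in 8 groups, after filterByExpr with a minimum count of 10 and a total of 15, which left 14496 of 23284 genes. CPM use the TMM-scaled library sizes. The quasi-likelihood test with Benjamini-Hochberg adjustment gave the comparison of lines and its differences from POVPC in normoxia and from vehicle in hypoxia. Simulated data were used to test the scripts. Members and the 46 gene lists were chosen with earlier results of these data known. Named genes are, per list, the 5 tested members of the highest mean CPM and 3 further ones with the smallest p, the 12 largest rises and falls among called genes that averaged 1 CPM or more and did not overlap, and the 5 largest differences each way at 5 CPM or more. Myh11, Cnn1 and other defining markers were added, and some genes of the rule are not reported here. Alternatives were RLE or library size scaling, no or a 5 CPM filter, DESeq2 1.42.0, a fit that is not robust, the groups alone, a replicate block, halved counts, structural RNA genes left out, a minimum of 2-fold, and libraries left out. Tissue libraries of the series were not used here.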

Additional observations from a re-analysis of the deposited data

Results flagged for a closer look

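The values here stand out because the effect of genotype itself differed between 2 oxygen levels or between POVPC and vehicle, tested as an interaction term in edgeR's quasi-likelihood fit with Benjamini-Hochberg adjustment over all tested genes. Those given are among the 5 largest on each side, from called genes that averaged 5 CPM or more in the 12 libraries compared. No cause was tested for any of them.

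Between hypoxia and normoxia with POVPC, the KO to WT log2 fold change was larger in hypoxia by 5.32 for Lum, 4.86 for Myo5b, 4.26 for Prelp and 4.11 for Cyp17a1. The fitted value of Lum depends on the prior count, because all 3 WT libraries in hypoxia were at 0. It was 4.30 with halved counts and 3.92 with DESeq2, so its place in the order is not firm. The call of Cyp17a1, a steroid hydroxylase, had an adjusted p of 0.0491 and was lost in 11 of 17 alternatives, among them the replicate block (0.0589), RLE size factors (0.052), a fit that is not robust (0.0587) and any 1 library left out except WT library 2. The adjusted p over the alternatives was 0.0011 to 0.0731. Cyp17a1 averaged 19.7 CPM in KO and 0.555 CPM in WT cells in hypoxia, and 0.101 CPM in KO and 0.0383 CPM in WT cells in normoxia.

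The KO to WT log2 fold change was smaller in hypoxia for 5 further genes, with differences of -5.09 for Dhrs9, -5.01 for Kctd12, -4.78 for Kif5c, -4.30 for Ptpn5 and -4.28 for Lgr6. Ptpn5, a tyrosine phosphatase, averaged 0.705 CPM in KO cells and 0.103 CPM in WT cells in hypoxia, and 85.3 CPM in KO and 0.815 CPM in WT cells in normoxia. Its call was lost without WT library 3 (adjusted p = 0.152).

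Between POVPC and vehicle in hypoxia, the KO to WT log2 fold change was larger with POVPC by 2.76 for Eps8l2, 2.52 for Upk3b, 2.45 for Tagln, 2.27 for Ctgf and 2.16 for Cdo1. Cdo1, cysteine dioxygenase, averaged 1.64 CPM in KO cells and 5.91 CPM in WT cells with POVPC, and 1.003 CPM in KO and 17.9 CPM in WT cells with vehicle. The difference was -2.58 for Tfcp2l1, -2.52 for Dync1i1, -2.47 for Mcpt2, -1.98 for Crct1 and -1.81 for Ccl7. Dync1i1, a dynein chain, had an adjusted p of 0.0201 and lost its call with halved counts (0.0572) and without WT library 3 (0.0889). Its call was also lost without the 3 shallowest libraries (difference -2.66). Crct1 lost its call without the 3 shallowest libraries (difference -1.38). Mcpt2, a mast cell protease, averaged 10.4 CPM in KO cells and 1.5 CPM in WT cells with POVPC, and 9.14 CPM in KO and 0.219 CPM in WT cells with vehicle.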

How the results depend on the processing

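The 8351 calls between KO and WT cells became 1418 when the test was made against a minimum of 2-fold, and the 2726 calls of at least 2-fold became 1801 with only genes above 5 CPM kept. The 1358 calls of a changed POVPC effect became 426 without the 3 shallowest libraries (385 of them shared with the 1358) and 828 with the compared groups fitted alone. DESeq2 called 8360 genes between the lines, 4606 for oxygen and 1755 for POVPC. Positive calls made up 62.9% of the POVPC calls, against 80.6% with library size alone, where the median over all genes was 0.13, and 51.7% with DESeq2. Leaving out 1 library of the compared groups in turn gave 7646 to 7910 calls between the lines, 2592 to 2704 of at least 2-fold, 3898 to 4406 for oxygen, 1027 to 2012 for POVPC and 485 to 498 called list members, against 505 with all libraries. Without the 3 shallowest libraries WT library 3 stood alone in its group and is assumed to vary like the other groups.

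With the replicate number as a block there were 8316, 4289 and 1320 calls for the lines, oxygen and POVPC. Deviations of same-numbered libraries correlated at r = -0.0426, 0.102 and -0.0964, and those of differently numbered ones at -0.148 to 0.225. These values show no sign of pairing by number, but 3 libraries per group are too few to exclude it.

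Of 213 values of named genes, 193 kept their call and direction in every alternative. Many were named for a small p or a large difference in these same data, so that share does not describe all genes. Cd79a gave 0.19 without the 3 shallowest libraries and -2.39 to 0.50 with 1 library left out, changing sign without WT library 2. The other changes of sign were in genes that were not called. Fdft1 gave -0.0335 with RLE size factors, -0.0071 with no filter, -0.0055 with the 5 CPM filter, -0.0097 with halved counts, -0.0051 without structural RNA genes, -0.14 without the 3 shallowest libraries, -0.0317 with the groups alone, -0.0336 with DESeq2 and -0.10 to 0.17 with 1 library left out. Fn1 gave -0.0201, -0.00081, -0.0186 and -0.0199 with RLE size factors, without the 3 shallowest, with the groups alone and with DESeq2, and -0.15 to 0.098 with 1 library left out. Kif5c gave -0.0091, -0.0125 and -0.0124 with RLE size factors, the groups alone and DESeq2, and -0.11 to 0.20 with 1 library left out. With library size alone Hif1a gave 0.0243 and Kctd12 0.0078. With 1 library left out Hif1a gave -0.12 to 0.0418, Kctd12 -0.13 to 0.01003, Cnn1 -0.27 to 1.196 and Timp2 -0.22 to 0.0217. The causes were not tested.

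WT library 2 had 8063121 counts, the fewest of the 6, so 3 counts there stand for 0.41 CPM and levels below that are not firm in it. Each genotype was 1 line, and 3 libraries of a line do not measure how lines of 1 genotype vary. Multimapping alignments were not counted. Hmgcs1 and Thy1 are listed at 0, and the cause was not tested.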
